A study of Mus musculus with 10 samples.

Results

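The neighbouring genes Cd28, Ctla4 and Icos on mouse chromosome 1 encode related receptors that adjust how T cells respond to antigen. They were examined here as a locus for binding of p65 (RelA), an activating subunit of the transcription factor NF-kB. Binding was mapped with ChIP-seq, in which chromatin fragments bound by a protein are pulled down with an antibody and sequenced. The members are all deposited peaks that overlap an interval of 360 kb (genome build mm10), which begins 46.4 kb before Cd28 and ends 59.7 kb after Icos. After overlapping peaks of a list were merged into regions, the locus held 26 distinct regions of the 11923 in the whole series. By list these were 26 of 11077 regions in stimulated Treg, 10 of 5734 in stimulated Tconv, 1 of 3208 in unstimulated Treg and 0 of 2961 in unstimulated Tconv.

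The cells were regulatory T cells (Treg) and conventional T cells (Tconv) from spleens and lymph nodes of C57BL/6 mice. Stimulation lasted 3 h, with plate-bound anti-CD3, soluble anti-CD28 and IL-2 at 10 ng/ml for Treg and 2 ng/ml for Tconv; unstimulated cells form the remaining groups, and their culture was not given in the sources used here. Each of the 4 groups had 2 libraries, and 2 further libraries were input chromatin mixed from the cell types with and without stimulation. The authors deposited 1 peak list per group, made from pooled libraries, so the spread between replicates is not known and no difference below has a replicate check. Stimulated Treg differed from stimulated Tconv in IL-2 dose as well as in cell type, and stimulation cannot be told apart from the IL-2 and culture that went with it. Peak lists hold no expression values, so the labelled cell types could not be checked against marker genes.

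CD28 is the receptor that supplies co-stimulation beside the T cell receptor, and one route of its signal runs through PKC-theta to NF-kB, the factor measured here. CTLA-4 binds the same ligands, CD80 and CD86, and restrains the response; it is held at high levels by Treg, which need it for suppression. ICOS is an inducible relative of CD28 that binds ICOS ligand and is found on activated and effector-type T cells, Treg included. Of the antibodies that stimulated these cells, anti-CD28 is directed against the product of Cd28 itself.

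The genes lie in the order Cd28 (60746388 to 60773359), Ctla4 (60909025 to 60915832) and Icos (60960773 to 61000322) in RefSeq's table for GRCm38.p6, whose coordinates are those of mm10. They are the 3 protein-coding genes of the interval, which also holds 4 annotated long non-coding RNAs and 5 pseudogenes. The genes are read towards higher coordinates, which the RefSeq promoter table states for Ctla4 and which is background knowledge for Cd28 and Icos. The gap between the end of Cd28 and the start of Ctla4 is 136 kb, and that between Ctla4 and Icos is 44.9 kb. The span of a gene in the table covers curated and predicted transcripts together, so that a position inside Icos may still lie before the start of the transcript that T cells use. Exons and introns were not analysed here.

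The sequence before the start of Ctla4 is shown because it was, of the 7 RefSeq promoter windows of the locus, the one that held the strongest summit (the base of highest signal) of a p65 region. It spans chr1:60908775-60909024 on the forward strand (GRCm38.p6, RefSeq), ends at the base before the gene, and has in capitals the 21 bases centred on the stimulated Treg summit.
Ctla4 promoter: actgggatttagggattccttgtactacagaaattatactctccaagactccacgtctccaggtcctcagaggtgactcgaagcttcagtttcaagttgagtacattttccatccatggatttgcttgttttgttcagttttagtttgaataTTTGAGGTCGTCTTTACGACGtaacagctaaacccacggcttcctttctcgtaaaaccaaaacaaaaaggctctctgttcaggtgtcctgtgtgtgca

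The stimulated Treg summit lies 88 bp and the stimulated Tconv summit 93 bp before the start of Ctla4, within this window. A broad kappa B pattern (GGG, 5 unspecified bases and CC), a strict one (GGG, 2 unspecified bases and TTTCC) and the AP-1 pattern TGANTCA were searched on each strand, with overlapping matches allowed. The Ctla4 window held 0 matches to each. Of 32851 RefSeq promoter windows of 250 bases, 45.8% held the broad pattern, 1.41% the strict one and 6.75% the AP-1 pattern. The absence of a match says only that these letters are not in these 250 bases. Cd28 and Icos were not analysed for sequence here.

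p65 regions of the locus were found in the stimulated lists, with a lone exception beside Cd28. Stimulated Treg had 26 regions along the interval, from 32.5 kb before Cd28 to 45.9 kb past Icos, and stimulated Tconv had 10. Unstimulated Treg had 1 region, and unstimulated Tconv had 0. Each stimulated Tconv region overlapped a stimulated Treg region, where 4.15% of the whole Tconv list did not. The stimulated Treg regions without a stimulated Tconv counterpart numbered 16, where the whole-list share was 49.3%. The values that follow are the fold enrichment of a region's strongest summit over its local background and its −log10 p, both taken from the authors' peak caller; each ranks regions within its own list, and the lists are not on a common scale.

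**Figure D1:**
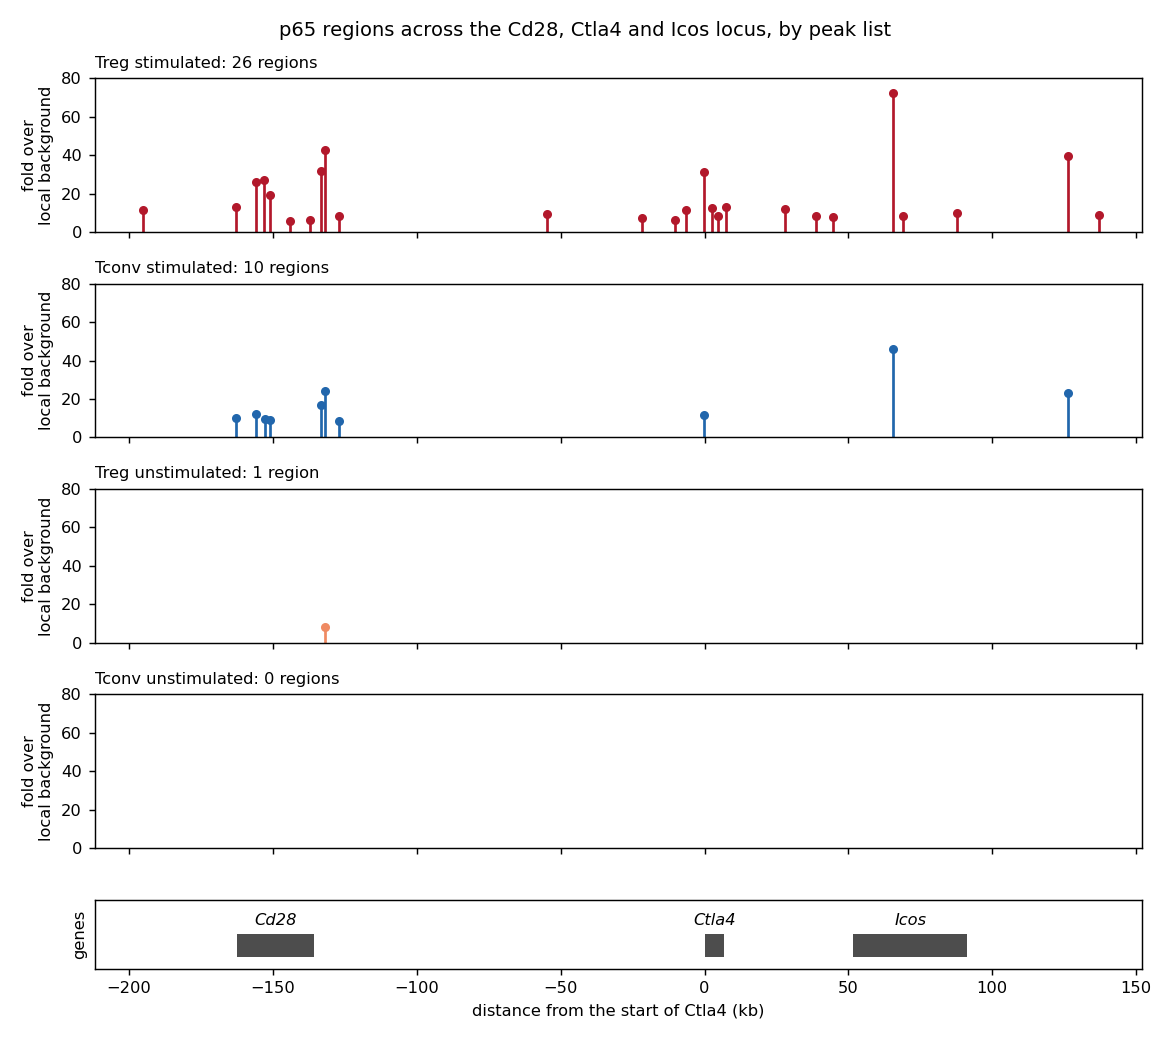
Each stem is a p65 region at its strongest summit, by distance from the start of Ctla4 in kb; height is the authors' fold enrichment over local background in that list, and the lowest strip shows the genes. The stimulated Treg list holds 26 regions, led by the region inside the annotated Icos span at 72.4-fold, and the stimulated Tconv list holds 10, while the unstimulated lists hold 1 and 0.

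Around Cd28 the stimulated lists resembled each other more closely in number than around its neighbours. Of the 26 stimulated Treg regions, 10 had Cd28 as the nearest protein-coding gene within 50 kb, 8 had Ctla4 and 7 had Icos, and 1 lay farther from any of them. The stimulated Tconv regions numbered 7 for Cd28, 1 for Ctla4 and 2 for Icos. Treg regions without a Tconv counterpart were thus 3 of 10 at Cd28, 7 of 8 at Ctla4 and 5 of 7 at Icos, where the share in the whole Treg list was 49.3%. Among Treg regions with a −log10 p of at least 38.1, the lowest value in the stimulated Tconv list, they were 1 of 8 at Cd28, 4 of 5 at Ctla4 and 2 of 4 at Icos. With the same cut-off the share in the whole Treg list was 38.1%. The lists are not on a common scale, so this cut-off does not set them at equal strength. The difference between the genes was not tested, since the regions of a locus are neighbours in the same libraries and not replicates.

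**Figure D2:**
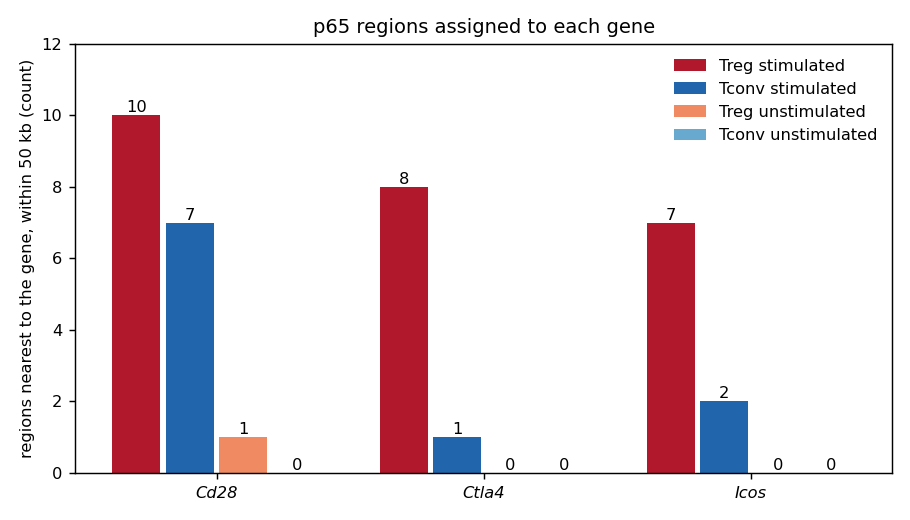
Bars count the regions whose nearest protein-coding gene, within 50 kb of the strongest summit, is the one named, for each of the 4 peak lists. In stimulated Treg the counts are 10, 8 and 7 for Cd28, Ctla4 and Icos, against 7, 1 and 2 in stimulated Tconv, and the unstimulated lists hold 1 region, at Cd28.

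The promoter of Cd28 carried a moderate region in the stimulated lists. Its summit lay 0.092 kb before the gene start (chr1:60745671-60746932, the span of both lists), with 13.2-fold enrichment in stimulated Treg and 10.0-fold in stimulated Tconv. The summits were 1 bp apart. In stimulated Treg, stronger regions lay inside the gene, while in stimulated Tconv the first of those below was above the promoter region in fold enrichment and the others were not. One, 6.78 kb past the start (chr1:60752429-60753407), had 26.3-fold enrichment in stimulated Treg and 12.2-fold in stimulated Tconv. Another, 9.67 kb past the start (chr1:60755487-60756446), had 27.1-fold enrichment in stimulated Treg and 9.54-fold in stimulated Tconv. A further one, 11.7 kb past the start (chr1:60757832-60758832), had 19.0-fold enrichment in stimulated Treg and 8.93-fold in stimulated Tconv. These regions within Cd28 thus stood in the upper part of the Treg list, at ranks 1278, 1192 and 2376 of 11077 by fold enrichment, and at ranks 3195, 5142 and 5419 of 5734 in the Tconv list. Lists of different lengths make such ranks a description within each list and no measure of change.

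The strongest binding near Cd28 lay just past its end. A pair of regions there had 31.7-fold enrichment 2.39 kb past the end (chr1:60774941-60776071) and 42.5-fold 3.79 kb past it (chr1:60776434-60777819) in stimulated Treg. In stimulated Tconv the same pair had 16.9-fold and 24.0-fold enrichment. The region 3.79 kb past the end ranked 389 of 11077 by fold enrichment in stimulated Treg and 610 of 5734 in stimulated Tconv. A weak region 8.51 kb past the end (chr1:60781481-60782198) lay inside the annotated long non-coding RNA gene 2310016D23Rik, with 8.56-fold enrichment in stimulated Treg and 8.51-fold in stimulated Tconv. Its −log10 p was 40.5 in stimulated Treg and 40.3 in stimulated Tconv, where the lowest value of the stimulated Tconv list was 38.1.

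The Cd28 end was also where p65 was listed without stimulation. The region 3.79 kb past the end of Cd28 was present in unstimulated Treg at chr1:60776744-60777519, with 8.0-fold enrichment, a −log10 p of 33.8 and rank 1675 of 3208 by fold enrichment. Its summit lay 95 bp from the stimulated one. The unstimulated Tconv list held no region anywhere in the interval. The lowest −log10 p was 13.3 in that list and 15.1 in the unstimulated Treg list, and these lists are not on a common scale. Whether the list limits account for the absence was not tested. In the whole unstimulated Treg list, 20.6% of regions had no unstimulated Tconv counterpart. The nearest unstimulated regions outside the interval lay 356 kb below it, at Cyp20a1, in each cell type, and 2053.5 kb above it in Treg and 2053.3 kb in Tconv, at Ino80d.

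Cd28 had 3 regions in stimulated Treg that were not in stimulated Tconv. One stood alone 32.5 kb before the gene (chr1:60713482-60714306), with 11.5-fold enrichment, at rank 5491 of 11077. The others lay inside Cd28, 18.5 kb (chr1:60764647-60765006) and 25.5 kb (chr1:60771707-60772008) past its start, with 5.66-fold and 6.43-fold enrichment. The last 2 were among the weakest of the Treg list, at ranks 11040 and 10916 of 11077.

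Ctla4 had a strong promoter region in stimulated Treg, and the other regions assigned to it were in the stimulated Treg list alone. The promoter region spanned chr1:60908359-60909521, with 31.3-fold enrichment and a −log10 p of 223 in stimulated Treg, against 11.7-fold and a −log10 p of 53.4 in stimulated Tconv. It ranked 866 of 11077 in the Treg list and 3426 of 5734 in the Tconv list by fold enrichment. The printed promoter sequence holds the summits of these lists, 5 bp apart. Neither unstimulated list had a region at Ctla4.

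In stimulated Treg the Ctla4 gene body, short at 6.81 kb, and its flanks held 7 further regions. Inside the gene, 2.69 kb past the start, lay a region of 12.7-fold enrichment (chr1:60910585-60912990), the widest of the locus at 2406 bp. A second lay 4.51 kb past the start, with 8.18-fold enrichment (chr1:60913193-60914483). Another had its summit 0.641 kb past the end of the gene, with 12.8-fold enrichment (chr1:60915577-60917710). With the promoter region they form a run of 4 regions in which neighbouring summits lie 2.78, 1.82 and 2.94 kb apart. Before the gene, regions lay 6.37 kb (chr1:60902419-60903137, 11.4-fold), 10.2 kb (chr1:60897730-60899664, 6.14-fold) and 21.8 kb (chr1:60886654-60887430, 7.20-fold) from its start. The last of these joined 2 summits, and the stronger of them lay inside the long non-coding RNA genes Gm38137 and Gm39650. After the gene, a region of 11.8-fold enrichment lay 21.3 kb from its end, inside the long non-coding RNA gene Gm34649 (chr1:60936915-60937498). None of these 7 regions had a counterpart in any other list. In the whole stimulated Treg list, 49.3% of regions had no stimulated Tconv counterpart and 77.3% no unstimulated Treg one. The regions of 8.18-fold, 6.14-fold and 7.20-fold enrichment had a −log10 p of 33.9, 28.2 and 37.0. These values are below 38.1, the lowest of the stimulated Tconv list.

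The widest empty stretch of the locus separated Cd28 from Ctla4. Neighbouring summits lay 72.4 kb apart there, against a median spacing of 6.72 kb over the interval. The region that bounds it on the Ctla4 side, chr1:60853327-60854683, was 54.8 kb from Ctla4 and 80.9 kb from the end of Cd28, and so was assigned to no gene. It had 9.30-fold enrichment in stimulated Treg and was in no other list.

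The annotated span of Icos held the strongest p65 region of the locus in each stimulated list. The region spanned chr1:60973876-60975481 in stimulated Treg, with 72.4-fold enrichment and a −log10 p of 729, and chr1:60974011-60975307 in stimulated Tconv, with 46.0-fold and a −log10 p of 391. The summits were 6 bp apart, 13.7 kb past the lower-coordinate end of the annotated gene. That span covers predicted transcripts too, so the region may lie before the start of the transcript that T cells use. By fold enrichment it ranked 38 of 11077 in Treg, within the upper 0.343% of the list, and 61 of 5734 in Tconv, within the upper 1.06%. By −log10 p its ranks were 61 and 76. Neither unstimulated list had a region at Icos.

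A second strong shared region lay past the end of Icos. At 35.1 kb from the gene end (chr1:61034817-61035831) it had 39.5-fold enrichment in stimulated Treg, at rank 478, and 23.2-fold in stimulated Tconv, at rank 674. The nearest protein-coding gene was Icos, which does not say that the region acts on it. The 5 other Icos regions were in stimulated Treg alone and were weaker. Inside the annotated span they lay 17.1 kb (chr1:60977602-60978325, 8.11-fold) and 35.9 kb (chr1:60996475-60997034, 9.88-fold) past its start. Before the span they lay 12.9 kb (chr1:60947620-60948094, 8.51-fold) and 7.03 kb (chr1:60953484-60953981, 7.92-fold) from that start. The span covers predicted transcripts too, so any of these regions may lie elsewhere relative to the start of the transcript that T cells use. The outermost lay 45.9 kb past the end (chr1:61045962-61047304, 8.96-fold).

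The 10 shared regions kept nearly the same order in the stimulated lists. In each list the region inside the annotated Icos span was highest. It was followed by the region 3.79 kb past Cd28, the region 35.1 kb past Icos and the region 2.39 kb past Cd28. Across these 10 regions the fold enrichments had a Spearman rho of 0.915, given as a description over regions that share the same libraries. Summits of shared regions lay 1 to 42 bp apart, with a median of 6 bp. Fold enrichments of the shared regions ran from 8.56 to 72.4 in stimulated Treg (median 29.2) and from 8.51 to 46.0 in stimulated Tconv (median 12.0).

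**Figure D3:**
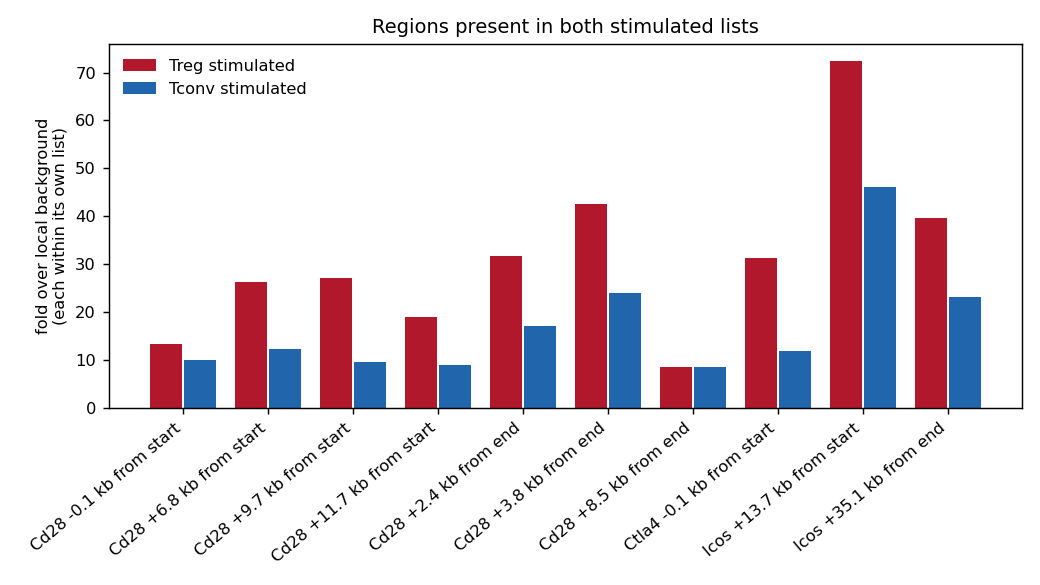
Paired bars give the authors' fold enrichment over local background for the 10 regions present in both stimulated lists, left to right along the chromosome, each named by its distance from a gene's start or end. The region inside the annotated Icos span is highest in each list, at 72.4-fold in stimulated Treg and 46.0-fold in stimulated Tconv. The lists are not on a common scale.

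The 16 regions in stimulated Treg alone were weaker than the shared ones within the same list. Their fold enrichment ran from 5.66 to 12.8 with a median of 8.74, against 8.56 to 72.4 and a median of 29.2 for the Treg values of the 10 shared regions. The whole Treg list showed the same order, with medians of 9.22-fold without and 15.8-fold with a Tconv counterpart. The lists also end at different values, at a −log10 p of 26.6 in stimulated Treg and 38.1 in stimulated Tconv. They are not on a common scale, so 38.1 is a cut-off and no mark of equal strength. All 10 shared regions had the higher fold enrichment number in stimulated Treg. The same count over the whole lists was not made, so this gives no excess particular to the locus. Whether the Tconv limit accounts for regions above 38.1 in Treg was not tested. Of the 16 regions, 8 were below 38.1, where a Tconv region of the same −log10 p would not have been listed. The other 8 (50%) were at or above it, against 58.1% of the 5463 Treg regions without a Tconv counterpart in the whole list. Those at or above it were 1 at Cd28 (32.5 kb before it), 4 at Ctla4 (6.37 kb before its start, 2.69 kb inside, 0.641 kb past its end and 21.3 kb past its end), 2 at Icos (35.9 kb inside and 45.9 kb past its end) and the region assigned to no gene.

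Strength did not order the shared and unshared regions completely. The shared promoter region of Cd28 had a −log10 p of 77.6 in stimulated Treg, and the unshared region 32.5 kb before Cd28 had 78.8. The unshared regions 6.37 kb before Ctla4 and 0.641 kb past its end had 75.6 and 75.5. Between 38.1 and 100, a range chosen after the values were seen, 8 of 10 Treg regions of the locus had no Tconv counterpart, against 52.0% of 5243 regions in the whole Treg list. At 100 and above the count was 0 of 8, against 14.6% of 3086.

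**Figure D4:**
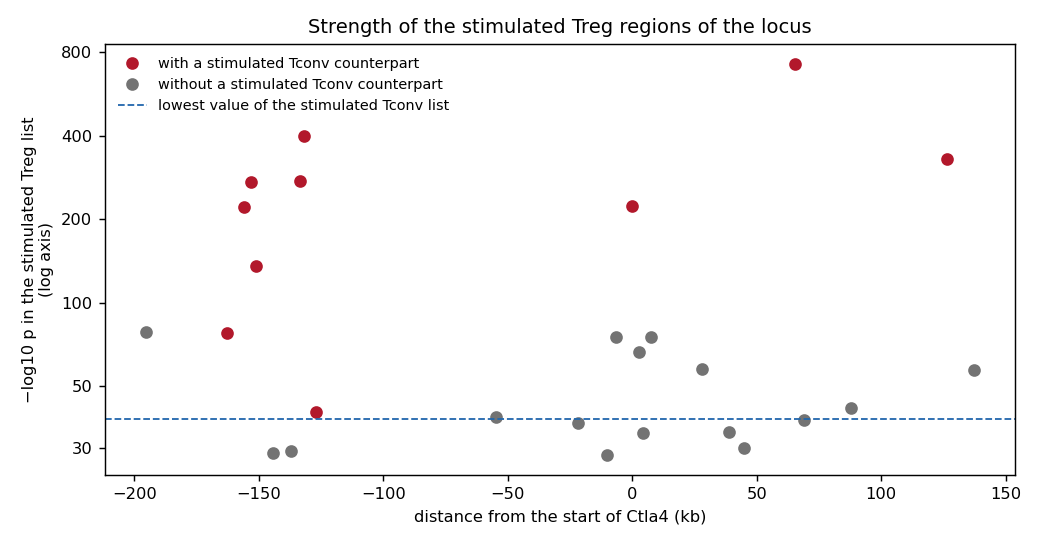
Points are the 26 stimulated Treg regions, by distance from the start of Ctla4 in kb and by the authors' −log10 p on a log axis; colour marks a stimulated Tconv counterpart and the dashed line is the lowest −log10 p of the stimulated Tconv list, 38.1. The 8 regions at 100 or above all have a Tconv counterpart, while 8 regions between the line and 78.8 and 8 below the line have none.

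Over the interval, 16 of 26 stimulated Treg regions (61.5%, exact binomial 95% interval 40.6 to 79.8%) had no stimulated Tconv counterpart, and the whole-list share of 49.3% lies inside that interval. In the other direction 0 of 10 stimulated Tconv regions lacked a stimulated Treg counterpart (0 to 30.8%), against 4.15% of the whole Tconv list. With stimulation, 25 of 26 Treg regions (96.2%, 80.4 to 99.9%) had no unstimulated Treg counterpart, against 77.3% in the whole list. All 10 stimulated Tconv regions (100%, 69.2 to 100%) had no unstimulated Tconv counterpart, against 67.4%. The intervals cover counting error over regions, which are not independent. Sequencing depth is not known for any library, and the length of a list also depends on it.

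The stimulated regions lay densely and mostly away from annotated gene ends. Merged regions covered 7.51% of the interval in stimulated Treg and 2.62% in stimulated Tconv. When the genome was tiled in windows of the same width, 2895 windows held at least 1 stimulated Treg region, with a median of 3, and 6 of them held 26 or more; the highest count was 27. For stimulated Tconv, 33 of 2247 such windows held 10 or more, where the median was 2. Summits no more than 1 kb from either end of a protein-coding gene made up 3 of the 26 Treg regions, against 32.9% of the whole list, and 2 of the 10 Tconv regions, against 39.0%. By the annotated gene spans, these were the promoter regions of Cd28 and Ctla4 and, in Treg, the region at the end of Ctla4. The annotated Icos span covers predicted transcripts too, so a region at the start of another Icos transcript may not be counted. Counted by gene, 77 of the 5505 genes with a stimulated Treg region had at least the 10 regions of Cd28, 142 at least the 8 of Ctla4 and 199 at least the 7 of Icos, where the median was 1. Neither these counts nor the shares near gene ends were adjusted for gene spacing, and the interval holds 3 protein-coding genes in 360 kb.

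A stretch without stimulated regions lay on each side of the interval. The usual spacing of regions over the genome was not analysed here. Below it the next stimulated region lay 132.5 kb away, at Raph1, in Treg (10.2-fold) and 132.5 kb away in Tconv (13.3-fold). Above it the next lay 75.3 kb away in Treg (7.76-fold) and 77.0 kb away in Tconv (10.1-fold), and neither had a protein-coding gene within 50 kb.

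Related receptors and their ligands elsewhere in the genome carried stimulated regions too. Of 13 genes of the CD28 family and its ligands, Cd28, Ctla4 and Icos included, 11 had a region in stimulated Treg, 8 in stimulated Tconv, 3 in unstimulated Treg and 2 in unstimulated Tconv. Of the 10 outside the locus, 8 had a region in stimulated Treg, 5 in stimulated Tconv, 2 in unstimulated Treg and 2 in unstimulated Tconv. Among all 21883 protein-coding genes 25.2% had a region in stimulated Treg, 16.5% in stimulated Tconv, 13.4% in unstimulated Treg and 12.5% in unstimulated Tconv. Outside the locus, the receptors Pdcd1, which encodes the inhibitory receptor PD-1, and Btla, another inhibitory receptor gene, had 7 regions each in stimulated Treg and 2 each in stimulated Tconv. The strongest values in stimulated Treg belonged to Icos (72.4-fold), Pdcd1lg2, which encodes the PD-1 ligand PD-L2 (50.7-fold), and Btla (49.7-fold), against 46.0-fold, 35.0-fold and 30.5-fold in stimulated Tconv. The ligand genes Cd86 (21.9-fold), Cd274 (13.4-fold) and Vtcn1 (11.2-fold) were bound in the stimulated Treg list but not in the stimulated Tconv list, as were 9.49% of all genes. Cd80 and Cd276 had none in any list.

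Of 17 genes on the path from CD28 to NF-kB, 14 had a region in stimulated Treg, 14 in stimulated Tconv, 5 in unstimulated Treg and 6 in unstimulated Tconv. Among all protein-coding genes the shares were 25.2%, 16.5%, 13.4% and 12.5%, in the same order of lists. The strongest values were those of Pik3r1, a regulatory subunit gene of PI3-kinase (52.7-fold in stimulated Treg and 24.9-fold in stimulated Tconv), Prkcq, which encodes PKC-theta (48.5-fold in stimulated Treg and 35.1-fold in stimulated Tconv), and Pik3cd, a catalytic subunit gene of PI3-kinase (30.3-fold in stimulated Treg and 23.5-fold in stimulated Tconv). Prkcq had 19 regions in stimulated Treg and 11 in stimulated Tconv. The 14 genes with a stimulated Treg region were the same 14 that had a stimulated Tconv region. The list names Pdk1, a pyruvate dehydrogenase kinase gene, where the kinase of the path is encoded by Pdpk1; with Pdpk1 in its place the counts were 14 in stimulated Treg, 13 in stimulated Tconv, 4 in unstimulated Treg and 5 in unstimulated Tconv.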

How the data were processed

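Sonicated chromatin was precipitated with an antibody against p65, per the labels' protocols. The submitters' processing notes name MACS2 2.1.1.20160309, the build mm10, BWA 0.7.15-r1140 and Trim Galore 0.4.1. Per the names of the deposited files, replicates were pooled, blacklisted regions were removed and a conservative set of reproducible peaks (IDR) was retained. The deposited fold enrichment is a ratio over local background. The deposited −log10 p belongs to each summit. The deposited score equals 10 times −log10 p (within 1 unit in 100% of entries). The lists give no read numbers, so depth is unknown.

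Overlapping entries of a list were merged, keeping the strongest summit by −log10 p. An overlap of at least 1 bp made a counterpart. Each region was assigned to the nearest of 21883 protein-coding gene bodies (RefSeq, GRCm38.p6) within 50 kb. Shares carry exact Clopper-Pearson 95% intervals. No test was run, since there is 1 list per group. Overlaps had 0 disagreements with a brute-force search over 300 regions and were tested on simulated data. Alternatives changed the list threshold, the merging, the overlap, the distance and the annotation. The design also planned motif searches under every summit; without a genome sequence these were made in RefSeq promoter windows alone. The named genes are the locus genes and, from both pathway lists, the genes in stimulated Treg but not stimulated Tconv and the 3 strongest of each list in stimulated Treg; the region counts at Pdcd1, Btla and Prkcq were added after their values were seen. The members and lists were chosen with earlier results of these data known. Python 3.11.15, pandas 2.3.3, numpy 2.4.6, SciPy 1.17.1 and matplotlib 3.10.9 were used.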

Additional observations from a re-analysis of the deposited data

How the results depend on the processing

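No paired analysis was possible because each list pools the libraries of a group and the results come from no test; for the same reason leaving out a replicate could not be run. The share of stimulated Treg regions without a stimulated Tconv counterpart, 61.5%, ran from 44.4% (8 of 18, with a common −log10 p cut-off of 38.1) to 63.0% (every entry taken separately), and the whole-list share was 38.1% and 44.9% under the same settings. It was 60.0% when the stronger 50% of each list was read, where the whole-list share was 51.2%. It was 61.5% with a reciprocal overlap of 50% (whole-list share 54.6%) or with summits within 200 bp (whole-list share 52.7%). The common cut-off removed the unstimulated Treg region, leaving 0 unstimulated regions and 100% of stimulated Treg regions without an unstimulated counterpart. The upper 50% of each list held 15 stimulated Treg and 6 stimulated Tconv regions, fewer by construction. Within 10 kb, Ctla4 had 5 and Icos 4 stimulated Treg regions, Icos had 1 stimulated Tconv region, and 3 CD28 signalling genes had an unstimulated Treg region. With all annotated genes as candidates, Ctla4 and Icos had 4 stimulated Treg regions each, and Cd28 had 0 in unstimulated Treg, because non-coding genes took the others. By −log10 p the strongest stimulated Treg region ranked 61 in place of 38. Among all settings, 63 of 75 alternative values stayed within their interval or within 1.5 times, and 12 moved beyond it. Those that stayed include counts of 0 that could hardly change. The share over 1 unstimulated Treg region has an interval of 2.5 to 100%, and the intervals of the other shares are wide too. The tally is therefore no measure of robustness. Replacing Pdk1 by Pdpk1 was chosen after seeing the data.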
